A study of Homo sapiens with 18 samples.

Results

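Chromosomes 17 and 22 held 4626 of the 115087 regions of open chromatin in the deposited table, 3184 on chromosome 17 and 1442 on chromosome 22 (hg19). The members were chosen by position, but the pair of chromosomes was picked because their accessibility stood higher after cetuximab in SCC1. The values of SCC1 are therefore a description and carry no test, and tests are given for SCC6, for SCC25 and for the difference between these 2 lines. ATAC-seq, which uses the transposase Tn5 to insert adapters where chromatin is open, was run on the human head and neck squamous carcinoma lines SCC1, SCC6 and SCC25. Each line received cetuximab, an antibody that blocks the epidermal growth factor receptor (EGFR), at 100 nM or PBS, and cells were collected after 5 days. There were 3 libraries per group, apart from SCC1 PBS with 2 (replicates 1 and 3); SCC1 PBS replicate 2 was not analysed here. Nothing in the labels states separate cultures, so the spread between libraries of a group may be technical, and p-values measure that spread. Each line is a cultured tumour line.

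The reads in regions numbered 2194851 to 4171650 per library in SCC1, 4098164 to 15017130 in SCC6 and 2513828 to 13408698 in SCC25. Of 9 promoters of squamous epithelial genes, that of EPCAM lay above the median promoter in 17 of 17 libraries, that of ITGB4 in 15 and that of SFN in 10, whereas KRT14 and TP63 lay above it in 0. No promoter region was listed for the leukocyte genes PTPRC, CD3E and LYZ, for the fibroblast genes COL3A1, PDGFRB and LUM, or for the endothelial genes PECAM1, CDH5 and VWF. ITGAM lay above the median promoter in 4 libraries and COL1A1 in 17.

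Chromosomes 17, 19 and 22 are rich in genes, in G and C bases and in CpG-dense promoters, and gene-rich chromatin is in general more open and replicates early. Open regions fall into promoters, where transcription starts, and distal regions, many of which act as enhancers that bind factors such as AP-1. EGFR signals through the RAS-ERK cascade to AP-1 and through STAT factors, and genes of several of these steps (GRB2, CRKL, STAT3, STAT5A and STAT5B) lie on these chromosomes.

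A promoter region here lay within 1 kb of the start site of a protein-coding gene, and all other regions were called distal. There were 819 promoter and 2365 distal regions on chromosome 17 and 330 and 1112 on chromosome 22, so that promoters made up 25.7% and 22.9% of regions against 13.5% over the whole table. The median GC content was 53.7% on chromosome 17 and 55.5% on chromosome 22 against 45.9% over the table. The median CpG density was 1.88 and 2.02 per 100 bases against 1.01. By the midpoint of the region, 1980 of the 4626 members lay in introns of protein-coding genes, 1374 between genes, 648 in non-coding genes, 394 in untranslated exons and 140 in coding exons.

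4 regions illustrate both ends of the response in SCC1. Among the regions named below, they are the promoter region with the largest rise in signal and the distal region with the largest fall on each chromosome. The letters are the plus strand of GRCh37, and capitals mark matches to the motifs searched on either strand. The promoter regions of PYCR1, which makes an enzyme of proline synthesis, and of TNRC6B, a partner of Argonaute in silencing by microRNA, are shown as the longest stretch outside annotated untranslated exons. The distal regions lie 183 kb from the start site of KCNJ16, a potassium channel gene, and 62.7 kb from that of RASD2, a RAS-like GTPase gene. They stand at chr17:79895205-79895369 (PYCR1), chr17:67866356-67866555 (KCNJ16), chr22:40573744-40573928 (TNRC6B) and chr22:35874046-35874225 (RASD2).
PYCR1: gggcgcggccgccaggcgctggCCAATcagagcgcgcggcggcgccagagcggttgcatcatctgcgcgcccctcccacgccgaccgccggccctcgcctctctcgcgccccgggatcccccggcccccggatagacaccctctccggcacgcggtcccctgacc
KCNJ16: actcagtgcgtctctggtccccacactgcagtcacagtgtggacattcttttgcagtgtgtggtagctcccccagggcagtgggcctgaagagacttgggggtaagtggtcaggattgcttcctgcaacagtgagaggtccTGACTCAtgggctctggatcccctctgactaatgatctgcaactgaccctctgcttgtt
TNRC6B: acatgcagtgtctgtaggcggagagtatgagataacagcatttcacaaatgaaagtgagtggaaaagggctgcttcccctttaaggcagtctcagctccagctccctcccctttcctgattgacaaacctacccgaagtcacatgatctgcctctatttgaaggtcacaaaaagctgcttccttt
RASD2: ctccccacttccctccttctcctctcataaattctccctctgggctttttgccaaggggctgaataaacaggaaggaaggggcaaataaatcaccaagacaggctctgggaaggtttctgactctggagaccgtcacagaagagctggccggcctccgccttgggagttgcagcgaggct
The PYCR1 stretch of 165 bases held 25 CG pairs and a CCAAT box (CCAAT). The KCNJ16 stretch of 200 bases held 1 CG pair and 1 AP-1 motif (TGANTCA). None of the 8 motifs searched was found in the printed letters of the other two stretches.

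The share of all reads in regions that fell on these chromosomes is the simplest measure of the response. On chromosome 17 in SCC1 it was 4.67%, 3.87% and 4.41% in the cetuximab libraries and 3.23% and 3.21% in the PBS libraries. On chromosome 22 it was 1.84%, 1.48% and 1.81% against 1.20% and 1.24%. On both chromosomes, which were picked for their rise in SCC1, all 3 treated libraries of SCC1 stood above both untreated ones. The lowest of the treated libraries, replicate 2, was also the shallowest of all libraries.

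In SCC6 the share on chromosome 17 was 2.57%, 2.66% and 2.78% with cetuximab and 2.75%, 2.87% and 2.76% with PBS, and that on chromosome 22 was 1.45%, 1.53% and 1.68% against 1.67%, 1.69% and 1.67%. Treated and untreated libraries overlapped on both chromosomes. In SCC25 the share on chromosome 17 was 2.59%, 2.57% and 2.71% with cetuximab and 2.48%, 2.48% and 2.57% with PBS, and the groups overlapped. On chromosome 22 the treated libraries of SCC25 (0.924%, 0.921% and 1.09%) stood above the untreated ones (0.872%, 0.848% and 0.830%). Reads per chromosome also depend on the number of copies of that chromosome in each line, so the shares compare treatments within a line and not lines.

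**Figure D1:**
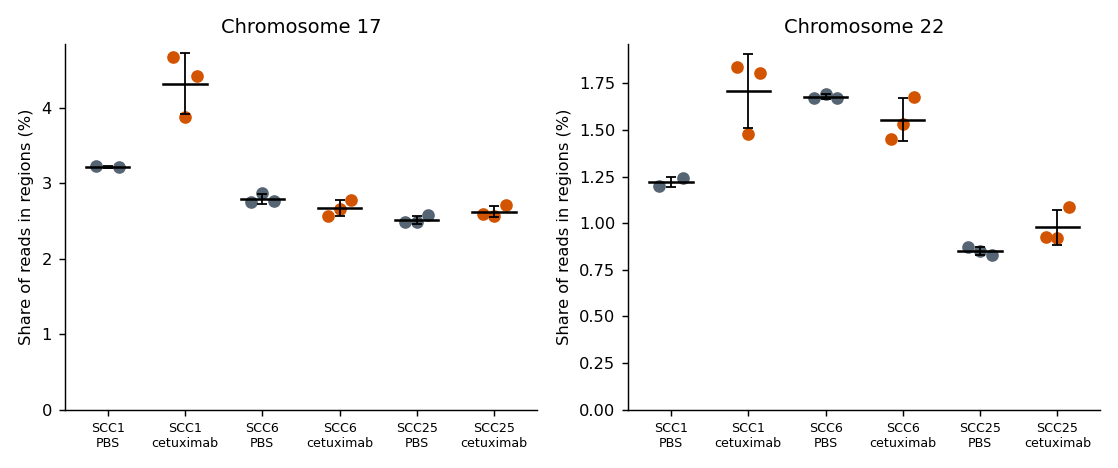
Share of the reads in regions (%) on chromosome 17 (left) and chromosome 22 (right) by line and treatment; each point is 1 library, the line is the group mean and the bars are ± 1 SD. The SCC1 cetuximab libraries stand at 3.87% to 4.67% on chromosome 17, above the PBS libraries at 3.21% and 3.23%, while the SCC6 groups overlap.

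The peak lists were called by the authors in each library, from the same SCC1 libraries whose rise led to the choice of the chromosomes. They are thus a description, in which the treated SCC1 libraries stood higher on chromosome 17. Chromosome 17 held 4.53%, 3.45% and 4.27% of the peaks of the cetuximab libraries and 3.36% and 3.24% of those of the PBS libraries. On chromosome 22 the shares were 1.69%, 1.12% and 1.58% against 1.18% and 1.12%, and the lowest treated library lay between the untreated ones. The median fold enrichment of peaks on chromosome 17 was 3.25 to 3.31 with cetuximab and 3.32 and 3.46 with PBS.

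To compare chromosomes, the log2 change of each region (cetuximab against PBS, on a log2 scale after adding 1 to the signal) was taken from limma, and the shift of a chromosome was defined as the median change of its tested regions less the median of all tested regions. Over all regions the median came to -0.09 for SCC1, 0.11 for SCC6 and -0.08 for SCC25, and centring each library on its own median moved it to 0.10, -0.06 and -0.01. In SCC1 the shift was 0.44 for chromosome 17 (2640 regions tested) and 0.53 for chromosome 22 (1198 regions), ranks 3 and 2 of 23 chromosomes. Chromosome 19 stood higher at 0.71, and chromosome 21, the next below, stood at 0.14, as did chromosome 16. Chromosome 20 had a shift of -0.00499.

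In SCC6 the shift was -0.14 for chromosome 17 and -0.21 for chromosome 22, ranks 19 and 22 of 23, and only chromosome 19 lay below chromosome 22 (-0.22). In SCC25 the shift was 0.05 for chromosome 17 and 0.20 for chromosome 22, ranks 3 and 1. Without the filter on low regions the shifts in SCC1 were 0.21 for chromosome 17 and 0.30 for chromosome 22. Leaving out each library in turn gave shifts of 0.38 to 0.53 and 0.47 to 0.66 in SCC1, -0.16 to -0.08 and -0.26 to -0.13 in SCC6, and 0.03 to 0.07 and 0.12 to 0.25 in SCC25. With a smooth trend in GC content removed from each library, the shifts of chromosomes 17 and 22 were 0.36 and 0.41 in SCC1, 0.01 and -0.04 in SCC6, and 0.02 and 0.15 in SCC25.

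**Figure D2:**
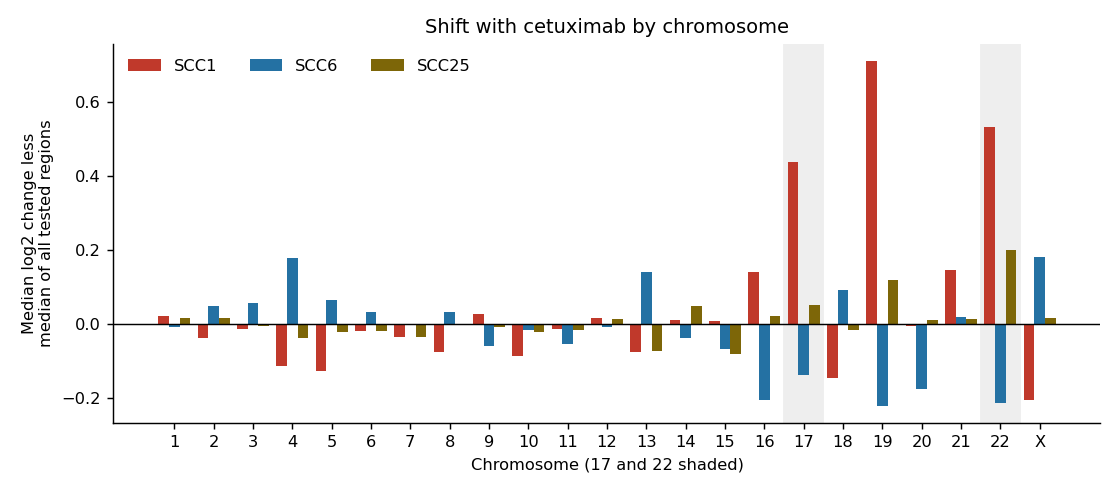
Shift with cetuximab (median log2 change of a chromosome's tested regions less that of all tested regions) for each chromosome in SCC1, SCC6 and SCC25; bars start at 0. Chromosomes 17 and 22 (shaded) stand at 0.44 and 0.53 in SCC1, below chromosome 19 at 0.71, and at -0.14 and -0.21 in SCC6.

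The shift of SCC1 was spread over most regions of the chromosomes. The log2 change was above 0 for 67.3% of tested regions on chromosome 17 and 76.6% on chromosome 22, against 44.7% of all tested regions. On chromosome 17 the 25% of regions with the smallest change lay below -0.18 and the 25% with the largest above 0.79, and on chromosome 22 these limits were 0.04 and 0.79. Regions that limma did not call still had shifts of 0.29 (2082 regions) and 0.42 (1002 regions). Regions with no peak in any SCC1 library had shifts of 0.31 and 0.47, and those with a peak in every SCC1 library 0.50 and 0.53. With all tested regions split into 4 equal classes by GC content, the shift of chromosome 17 was 0.29, 0.21, 0.36 and 0.45 from the lowest GC to the highest, and that of chromosome 22 was 0.51, 0.49, 0.51 and 0.38.

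limma called a region higher or lower at an adjusted p under 0.05 (Benjamini-Hochberg over all tested regions of the genome). In SCC1, 663 of 3838 tested members were higher and 91 lower, or 17.3% and 2.37%, where over all regions 4.57% were higher and 6.56% lower; the choice of the chromosomes used this contrast. Leaving out PBS replicate 1 of SCC1 gave 178 and 14, and leaving out its PBS replicate 3 gave 302 and 23. When cetuximab replicate 1 was left out the counts were 278 and 70, and with cetuximab replicate 3 omitted they were 390 and 81. Centring on the median gave 1013 and 56. These counts under other settings have no share of all regions beside them and are not read as particular to these chromosomes.

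Promoters and distal regions both took part in SCC1. Of 1061 promoter regions tested, 431 were higher and 4 lower (40.6% and 0.377%; all promoters 13.6% and 1.6%), and of 2777 distal regions 232 were higher and 87 lower (8.35% and 3.13%; all distal regions 2.75% and 7.57%, 10.3% in either direction). Measured against the median of all regions of the same class, the shift of promoters was 0.50 on chromosome 17 and 0.49 on chromosome 22, and that of distal regions was 0.35 and 0.50. The median promoter of chromosome 17 stood 2.07, 1.65 and 2.09 log2 units above the library median in the cetuximab libraries and 1.17 and 1.08 in the PBS libraries. The median distal region of chromosome 17 stood 0.40, 0.20 and 0.31 above it with cetuximab and 0.06 and 0.00 with PBS. Neither class overlapped between the groups, on a chromosome that was picked for its rise in SCC1.

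Windows of 5 Mb, numbered from the first base of each chromosome, showed where along the chromosomes the SCC1 shift lay. Of 25 windows with at least 20 tested regions, 17 on chromosome 17 and 8 on chromosome 22, 22 stood above 0 in SCC1. The windows at the ends of the long arms were the highest of each chromosome. Window 17 of chromosome 17 (chr17:80000001-81195210, 60 regions) had a shift of 0.98, with 26 regions higher and 0 lower. Window 11 of chromosome 22 (chr22:50000001-51304566, 39 regions) had a shift of 0.95, with 15 higher and 0 lower.

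Relative to the library median, window 17 of chromosome 17 stood at 1.72, 1.20 and 1.95 in the cetuximab libraries of SCC1 and at 0.87 and 0.84 in the PBS libraries. Window 11 of chromosome 22 stood at 1.22, 0.80 and 1.18 against -0.06 and -0.11. The groups did not overlap in either window, but both windows were picked as the highest of their chromosome in SCC1, so this is a description. Windows 9 (chr17:40000001-45000000, shift 0.88), 16 (chr17:75000001-80000000, 0.77) and 8 (chr17:35000001-40000000, 0.70) of chromosome 17 followed, and window 9 of chromosome 22 (chr22:40000001-45000000) had a shift of 0.75.

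3 windows of chromosome 17 stood below 0 in SCC1. Window 14 (chr17:65000001-70000000), with 4.4 protein-coding genes per Mb, had a shift of -0.19, with 2 regions higher and 15 lower of 129. Window 3 (chr17:10000001-15000000) had a shift of -0.11 with 0 higher and 9 lower of 138, and window 11 (chr17:50000001-55000000) -0.06 with 0 higher and 9 lower of 105. In window 14 the cetuximab libraries (0.68, 0.60 and 0.73) and the PBS libraries (0.73 and 0.59) overlapped. The lowest window of chromosome 22, window 6 (chr22:25000001-30000000), still had a shift of 0.34.

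In window 17 of chromosome 17 the promoters had a shift of 0.78 and the distal regions of 0.96, and in window 11 of chromosome 22 the values were 0.73 and 0.99. In window 3 of chromosome 17 promoters stood at -0.30 (15 regions) and distal regions at -0.05.

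**Figure D3:**
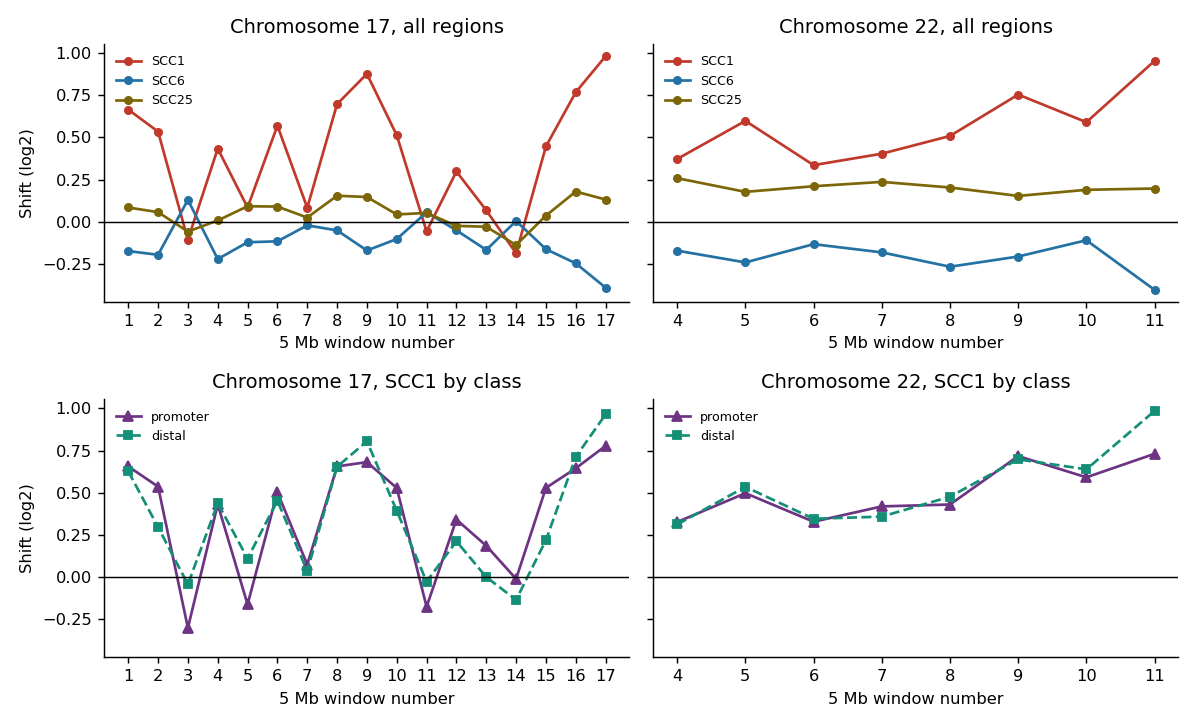
Shift (log2) of each 5 Mb window along chromosomes 17 (left) and 22 (right), above for all regions in 3 lines and below for promoter and distal regions in SCC1, each against the median of its own class. In SCC1 the last windows stand at 0.98 and 0.95 and window 14 of chromosome 17 at -0.19, while in SCC6 the same last windows stand at -0.39 and -0.41.

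In SCC6, 3 of 25 windows stood above 0. Window 17 of chromosome 17 stood at -0.39 and window 11 of chromosome 22 at -0.41, and the highest was window 3 of chromosome 17 at 0.13. In window 11 of chromosome 22 the SCC6 cetuximab libraries stood at 0.71, 0.58 and 1.00 over the library median and the PBS libraries at 1.25, 1.36 and 1.29, with no overlap. In SCC25, 21 of 25 windows stood above 0, within a narrow range of -0.14 (window 14 of chromosome 17) to 0.26 (window 4 of chromosome 22). All 8 windows of chromosome 22 stood at 0.15 or more in SCC25.

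The windows that rose most in SCC1 were rich in genes and in GC. Across the 25 windows, Spearman's rho between the SCC1 shift and the number of protein-coding genes per Mb was 0.75, and that with the median GC content was 0.89. In SCC6 these values were -0.55 and -0.76, and in SCC25 0.19 and 0.48. Windows share libraries and base composition, so these are descriptions. Over the 550 windows of the other chromosomes in SCC1, rho was 0.35 with gene density and 0.26 with GC content. Pearson's correlation with gene density in SCC1 was 0.75 in the 25 windows and 0.67 in those of the other chromosomes. On the other chromosomes rho with gene density and GC content was -0.66 and -0.77 in SCC6, and 0.41 and 0.49 in SCC25. The relation is thus not particular to chromosomes 17 and 22.

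Among windows with at least 8.8 genes per Mb, the median SCC1 shift was 0.53 in the 19 windows of chromosomes 17 and 22, 0.80 in 9 windows of chromosome 19 and 0.25 in 122 windows of all other chromosomes with chromosome 19 among them. On chromosome 22, window 10 (chr22:45000001-50000000) had a shift of 0.59 at 4.8 genes per Mb, whereas on chromosome 17 window 7 (chr17:30000001-35000000) had 14.8 genes per Mb and a shift of 0.08.

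**Figure D4:**
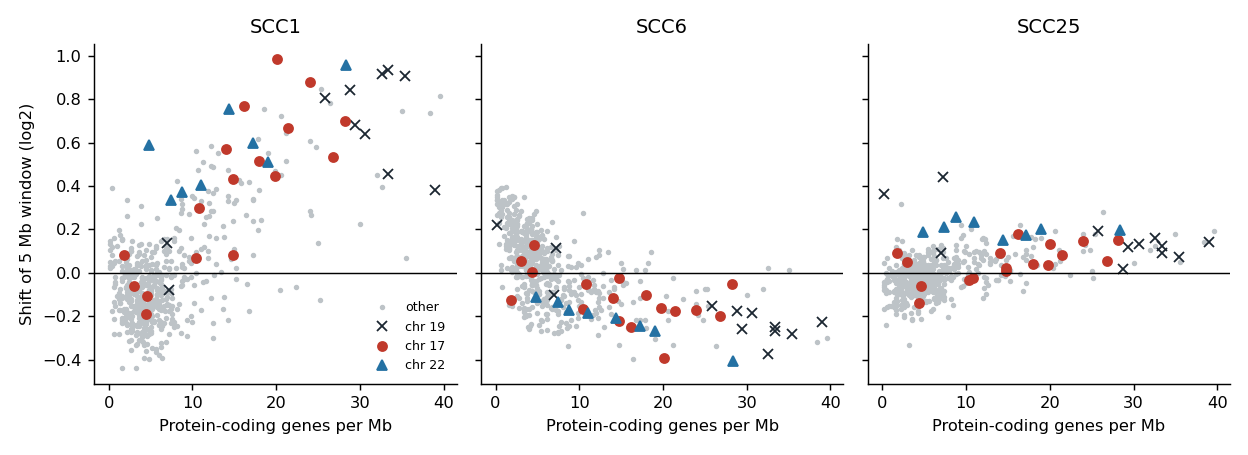
Shift (log2) of 5 Mb windows against protein-coding genes per Mb in SCC1, SCC6 and SCC25; each point is 1 window, with chromosomes 17, 19 and 22 marked. In SCC1 the windows of chromosomes 17 and 22 rise with gene density (Spearman's rho 0.75, n = 25), and in SCC6 they fall (-0.55).

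Each gene was read at whichever of its promoter regions had the highest mean. By this reading, 465 of 967 tested protein-coding genes of the 2 chromosomes were higher in SCC1 and 1 was lower, beside 16.7% higher and 1.05% lower over all genes. Neighbouring genes can share a region, and the 967 genes stood on 846 regions. The shift was thus carried by many promoters. Those named here had the largest change among called regions with separate groups and a signal above the median, so larger changes exist outside the named set.

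On chromosome 17 the promoter region of PYCR1 (chr17:79895126-79895414) had a deposited signal of 35.5, 23.4 and 67.3 in the SCC1 cetuximab libraries and 5.204 and 13.4 in the PBS libraries, a log2 change of 2.06 ± 0.50 (SE). The highest untreated value lay under the lowest treated one, which the naming rule required. In SCC6 the same region changed by -0.26 (limma adjusted p = 0.558) and in SCC25 by 0.11 (adjusted p = 0.907). TMEM101, which encodes a membrane protein (chr17:42092243-42092477), had a signal of 57.1, 48.7 and 59.5 against 9.11 and 18.98 (log2 change 1.98 ± 0.41).

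MPP3, a membrane-associated scaffold of cell junctions (chr17:41910418-41910629), stood at 67.3, 54.5 and 72.0 against 14.3 and 18.98 (1.897 ± 0.38). ATP6V0A1, a subunit of the proton pump that acidifies vesicles (chr17:40610696-40610909), stood at 72.3, 38.9 and 72.0 against 14.3 and 23.4 (1.63 ± 0.38). Both lie with TMEM101 in window 9 of chromosome 17, which had the second highest shift of that chromosome. ASPSCR1, a tether of glucose transporter vesicles (chr17:79935017-79935701), had the highest level of these promoters, 206, 127 and 189 against 40.3 and 73.7 (1.62 ± 0.25), and lies in window 16 together with PYCR1. PLD6, a mitochondrial phospholipase (chr17:17109573-17110140), stood at 83.8, 72.0 and 86.1 against 22.1 and 30.1 (1.60 ± 0.33).

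On chromosome 22 the TNRC6B region (chr22:40573703-40573984) stood at 30.5, 42.8 and 65.7 with cetuximab and at 2.60 and 24.6 with PBS, a log2 change of 2.23 ± 0.49. The distance between its 2 untreated libraries was large, and the change rests in part on the lower of them. SPECC1L, a linker of microtubules and actin (chr22:24699091-24699826), stood at 66.0, 62.3 and 106 against 14.3 and 23.4 (1.99 ± 0.35). TBC1D10A, a regulator of RAB GTPases (chr22:30700920-30701195), stood at 57.1, 35.0 and 53.2 against 10.4 and 15.6 (1.81 ± 0.43).

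CELSR1, a cadherin of planar cell polarity (chr22:46933398-46933749), stood at 50.8, 33.1 and 42.3 against 9.11 and 16.7 (1.66 ± 0.45). UBE2L3, a ubiquitin-conjugating enzyme (chr22:21921999-21922417), stood at 86.3, 40.9 and 106 against 23.4 and 21.2 (1.65 ± 0.35). MIEF1, a receptor of mitochondrial fission (chr22:39898059-39898457), stood at 72.3, 35.0 and 75.1 against 18.2 and 18.98 (1.58 ± 0.38). These 12 promoters had log2 changes of -0.53 to 0.25 in SCC6 and of -0.38 to 0.98 in SCC25, none of them called by limma in those lines. Of their calls in SCC1, that of CELSR1 was kept under 10 of 13 alternative settings. Those of PYCR1 and TNRC6B were kept under 11, and the others under 12 or 13.

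Promoter regions that fell in SCC1 were few. H2BN1, a histone H2B gene (chr17:31221438-31221633), stood at 20.3, 9.73 and 14.1 against 52.0 and 43.5 (-1.69 ± 0.47). A promoter region of MYOCD, the myocardin gene for a coactivator of smooth muscle genes (chr17:12647699-12648015), stood at 24.1, 23.4 and 15.7 against 72.9 and 39.1 (-1.33 ± 0.42). RNF215, a RING finger gene (chr22:30816540-30816767), stood at 16.5, 17.5 and 18.8 against 54.6 and 62.5 (-1.68 ± 0.43). The MYOCD call was kept under 8 of 13 alternative settings, and those of H2BN1 and RNF215 under 11.

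Among the named distal regions that rose in SCC1, the largest changes on chromosome 17 lay 2.63 kb from METRNL, a gene for a secreted factor (chr17:81054628-81054954; 53.3, 35.0 and 36.0 against 2.60 and 16.7; 2.38 ± 0.51), and 1.19 kb from FOXN1, a factor of epithelial differentiation (chr17:26852145-26852502; 67.3, 50.6 and 70.4 against 6.51 and 18.98; 2.37 ± 0.41). Another lay in an intron of SPNS2, a sphingosine-1-phosphate exporter (2.00 ± 0.41). On chromosome 22 they lay in SCARF2 (1.73 ± 0.42), in MRTFA, a coactivator of serum response factor (1.72 ± 0.34), and 415 kb from MN1 (1.61 ± 0.36). The SCARF2 region fell in SCC6 by 1.77 on the log2 scale (limma adjusted p = 0.000668).

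The named distal regions that fell in SCC1 were led by the one 183 kb from KCNJ16 (chr17:67866285-67866626), with 24.1, 38.9 and 59.5 against 206 and 188, a log2 change of -2.33 ± 0.28. It also fell in SCC6, by 0.67 (limma adjusted p = 0.0190), and had a change of -0.36 in SCC25 (adjusted p = 0.518). 2 further regions lay on either side of SOX9, a factor of progenitor cells, 601 kb (chr17:69515533-69515744) and 273 kb (chr17:70389786-70390049) from its start site. They stood at 7.62, 15.6 and 18.8 against 55.9 and 69.2 (-2.16 ± 0.46) and at 29.2, 23.4 and 34.4 against 101 and 131 (-1.97 ± 0.33). The second of them fell in SCC6 by 1.00 (adjusted p = 0.0140), and the promoter of SOX9 had log2 changes of -0.29, 0.07 and -0.08 in SCC1, SCC6 and SCC25, none of them called.

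On chromosome 22 the falls of the named regions were smaller. The region near RASD2 (chr22:35874046-35874225) stood at 35.5, 21.4 and 11.0 against 45.5 and 53.6 (-1.24 ± 0.42), a region in BCR at 16.5, 21.4 and 43.8 against 48.1 and 72.6 (-1.21 ± 0.39), and one in GRAMD4 at 41.9, 25.3 and 62.6 against 107 and 74.8 (-1.12 ± 0.32). The RASD2 call was kept under 4 of 13 alternative settings and the BCR call under 6.

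**Figure D5:**
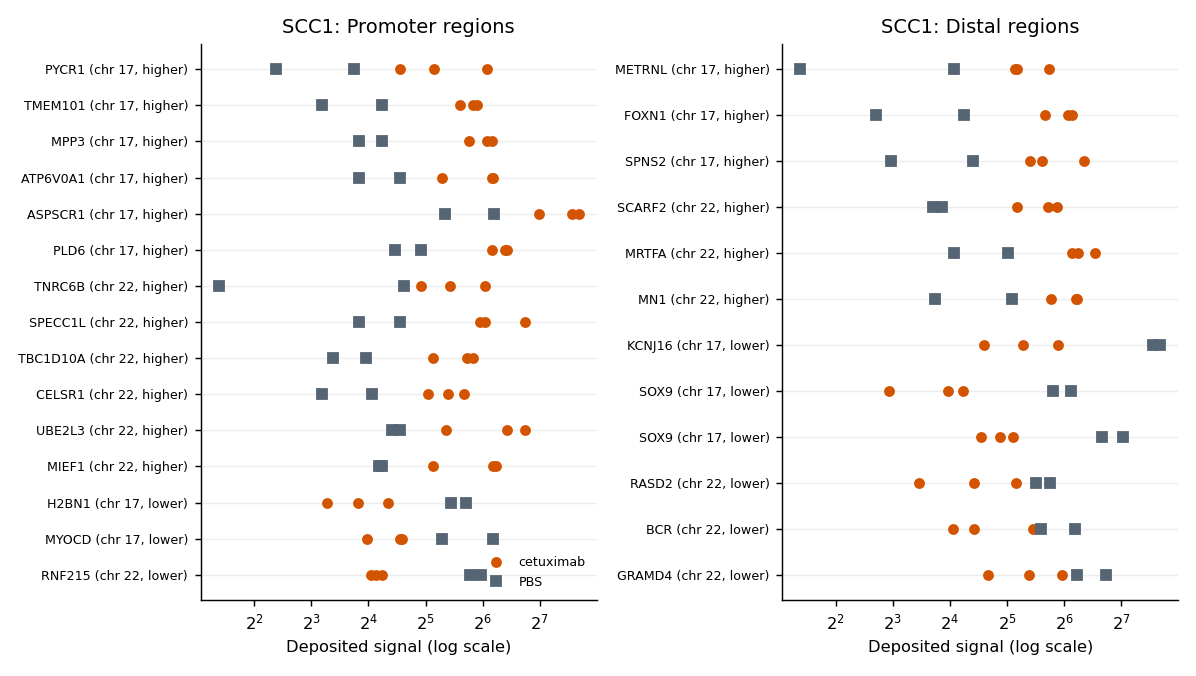
Deposited signal (log scale) of the named promoter (left) and distal (right) regions in SCC1; each point is 1 library, circles cetuximab and squares PBS. Groups do not overlap in any row, which the naming rule required; the KCNJ16 region stands at 24.1 to 59.5 with cetuximab and at 188 and 206 with PBS.

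Lists of genes of these chromosomes, grouped by role, described the promoter response in SCC1 further. The counts of each list stand beside the 465 of 967 tested genes of these chromosomes that were higher. No list was tested against that background, so no count is read as particular to a list. The median log2 change in SCC1 was 0.72 for the 967 tested genes of these chromosomes and 0.18 for all promoter regions of the genome. Of 28 tested genes of growth factor signalling 11 were higher and 0 lower, with a median log2 change of 0.65. They included the adaptors GRB2 (297, 208 and 233 against 118 and 142; 0.90) and CRKL (353, 269 and 365 against 189 and 181; 0.81), the factor STAT3 (396, 222 and 308 against 195 and 166; 0.73) and its inhibitor SOCS3 (119, 93.4 and 106 against 66.4 and 53.6; 0.82). STAT5A and STAT5B, both counted, share 1 region (1.89). Its change was larger than that of the named ATP6V0A1 promoter. It was not named, so it failed the naming rule on separate groups or on signal. The receptor gene ERBB2 (150, 93.4 and 64.2 against 49.4 and 73.7; 0.67) overlapped between groups.

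Of 27 genes of cell cycle and DNA repair, 15 were higher and 0 lower (median 0.69), among them CDC6, a licensing factor of replication (221, 152 and 254 against 101 and 97.1; 1.03) and the topoisomerase gene TOP2A (251, 171 and 202 against 100 and 114; 0.94). Of 25 chromatin regulators 17 were higher and 0 lower (median 0.79), with KDM6B, a histone demethylase gene, at 0.80 and SMARCB1, a remodelling subunit, at 0.86. Of 27 genes of core transcription, translation and the proteasome 16 were higher and 0 lower (median 0.84), with POLR2A, the large subunit of RNA polymerase II, at 383, 282 and 374 against 167 and 142 (1.15).

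Of 22 transcription factors 10 were higher and 0 lower (median 0.74), MAFF, MAFG and RARA among them at 0.85, 0.99 and 0.99. Of 17 genes of metabolism and redox 8 were higher (median 0.53), with the fatty acid synthase FASN at 1.00. The epithelial list of 16 genes had 10 higher and 0 lower (median 0.78), among them ITGB4, the hemidesmosome integrin (286, 162 and 305 against 98.9 and 122; 1.13). The keratin genes KRT15, KRT16, KRT17 and KRT19 stood at 0.71, 1.02, 1.11 and 1.16, although the groups overlapped at KRT19; KRT16 and KRT17 have near-identical copies on the same chromosome, so their reads are uncertain.

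In the list of cytokine and interferon genes limma called 0 of 10 tested genes in either direction, with a median of 0.23. Over the alternative settings 0 to 3 of them were called higher and the median ran from 0.03 to 0.44. No promoter region was listed for 13 of its 24 genes, CCL2, CCL5, CSF3 and OSM among them. Over the 13 alternative settings in SCC1, the medians of the other 7 lists stayed between 0.33 and 1.03 and their lower counts at 0, whereas the number of cell cycle genes called higher ran from 4 to 22.

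In SCC6, where the chromosomes were not chosen for the contrast, limma called 466 of 3683 tested members higher and 354 lower, or 12.7% and 9.61%, against 16.9% and 10.6% of all regions. The split depended on scaling, with 329 higher and 759 lower after median centring and 363 and 571 after quantile normalization. It was 425 and 464 with edgeR and 303 and 361 with DESeq2. No share of all regions under these settings stands beside these counts, so the turn is not read as particular to these chromosomes. Promoters leaned down, as did those of the whole genome, with 35 of 1037 higher and 90 lower (3.38% and 8.68%, against 3.77% and 10.9% of all promoters). Distal regions leaned up, again as over the genome, with 431 of 2646 higher and 264 lower (16.3% and 9.98%, against 19.5% and 10.6% of all distal regions). By chromosome, 44 of 731 promoters (6.02%) were lower on chromosome 17 and 46 of 306 (15.0%) on chromosome 22, a difference that was not tested. Promoters of chromosome 17 had a shift of -0.01 and those of chromosome 22 of -0.10 against all promoters, and distal regions had -0.13 and -0.20 against all distal regions.

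Of the named promoters, the one that rose most in SCC6 on chromosome 17 was that of NPLOC4, a cofactor of the ubiquitin-handling ATPase p97 (chr17:79533487-79534131), with 164, 121 and 147.8 with cetuximab and 35.0, 29.4 and 39.2 with PBS (log2 change 2.03 ± 0.20, limma adjusted p = 3.72e-11). NLRP1, an inflammasome sensor of keratinocytes (chr17:5487735-5488511), rose from 49.5, 44.2 and 46.8 to 108, 75.2 and 104 (1.00 ± 0.21, adjusted p = 0.000179). KRT16, a keratin of stressed epithelium, rose by 0.93 ± 0.27 (adjusted p = 0.00861). The groups did not overlap at any of these promoters, which the naming rule required.

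KRT15, a keratin of basal cells (chr17:39678045-39678690), fell in SCC6 from 209, 168 and 224 to 108, 87.3 and 126 (-0.90 ± 0.15, limma adjusted p = 3.44e-06). CD68 fell by 0.98 (adjusted p = 0.000610) and CSNK1D, casein kinase 1 delta, by 0.87 (adjusted p = 0.0109). On chromosome 22 TRIOBP, an actin-bundling protein gene (chr22:38145903-38146258), rose from 37.5, 40.8 and 57.6 to 114, 121 and 132 (1.43 ± 0.20, adjusted p = 1.48e-07), SUN2, of the nuclear envelope, rose by 0.78 (adjusted p = 0.0163) and ADA2 by 0.71 (adjusted p = 0.0347). The calls of SUN2 and ADA2 were kept under 9 and 7 of 14 alternative settings.

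GRAMD4 (chr22:46970942-46971319) fell from 84.6, 79.6 and 95.7 to 42.4, 33.4 and 32.1 (-1.25 ± 0.22, limma adjusted p = 1.74e-05). MB, the myoglobin gene (chr22:36018506-36018974), fell from 202, 191 and 164 to 82.8, 92.8 and 99.2 (-1.01 ± 0.15, adjusted p = 3.74e-07), and MYH9, non-muscle myosin, fell by 0.98 at one of its promoter regions (adjusted p = 0.00480).

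Among the named regions of SCC6, distal regions had the largest changes. A region in an intron of KSR1, a scaffold of the RAF-MEK-ERK cascade (chr17:25913182-25913758), rose from 22.96, 14.7 and 27.2 to 231, 247 and 206 (3.38 ± 0.21, limma adjusted p = 1.01e-17). Regions 51.9 kb from MYOCD (3.03 ± 0.35, adjusted p = 3.06e-09) and 475 kb from HS3ST3B1, a heparan sulfate enzyme gene (2.89 ± 0.26, adjusted p = 2.61e-12), rose too, both in window 3. On chromosome 22 a region 415 kb from MN1 (chr22:27782203-27782719), rose from 24.2, 26.8 and 14.1 to 221, 193 and 197 (3.22 ± 0.22, adjusted p = 1.69e-16). It is the region near MN1 that was also higher in SCC1 (74.9, 74.0 and 54.8 against 33.8 and 13.4). A region in MICAL3 rose by 2.87 (adjusted p = 4.90e-10) and another 465 kb from MN1 by 2.15 (adjusted p = 1.22e-09).

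The named distal falls of SCC6 were led by a region in TCF20 (chr22:42696711-42697047), which went from 90.6, 95.0 and 55.5 to 12.1, 17.6 and 22.8 (-2.14 ± 0.28, limma adjusted p = 3.19e-08). A region in BIK, nearest the start site of MCAT, fell by 1.75 (adjusted p = 3.63e-07), one 5.69 kb from LIF, a cytokine gene of the interleukin-6 family, by 1.64 (adjusted p = 2.85e-10). On chromosome 17 regions in ASIC2, nearest SPACA3 (-1.66, limma adjusted p = 2.68e-11), in RAB37, nearest CD300LF (-1.501, adjusted p = 5.84e-05), and nearest CDRT15L2 (-1.39, adjusted p = 4.07e-06) fell too. In each of these the groups did not overlap, which the naming rule required.

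By gene, 16 of 955 tested genes of the 2 chromosomes were higher in SCC6 and 92 lower, beside 2.32% and 11.7% of all genes. On chromosome 22, 49 of 283 genes were lower, and on chromosome 17, 43 of 672. Of the growth factor list 0 of 28 were higher and 4 lower, among them CRK (-0.51), CRKL (-0.47) and ERBB2 (-0.53). ERBB2 went from 123, 104 and 87.0 to 86.9, 60.3 and 70.1 (limma adjusted p = 0.0287). In the epithelial list KRT16 and KRT17 (0.78) were higher and KRT15, MYH9 and the claudin gene CLDN7 (-0.80) lower of 15. Among 23 transcription factors MEOX1 and MYOCD were higher and MAFF, SP2 and XBP1 lower. Lower genes in the other lists were CHEK2, PPM1D and XRCC6 of 27 cell cycle genes, BPTF of 25 chromatin regulators, ALDH3A2 and FASN of 17 metabolic genes and EIF4A3, SNRPD3 and SRSF2 of 27 core genes. Of 9 cytokine and interferon genes LIF was higher and 0 were lower. With the GC trend removed, 0 genes of the growth factor list were lower in SCC6 and 1 was higher, and with median centring 7 were lower.

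In SCC25 limma called 1 of 3746 tested members higher and 1 lower, against 0.0405% and 0.275% of all regions, and 368 had an unadjusted p under 0.05. No share of all regions at the unadjusted threshold stands beside this count or the others at that threshold, so they are not read as a response. edgeR called 21 and 8 and DESeq2 5 and 1, also without a share of all regions beside them. The region called higher lay 35.9 kb from TMEM106A (chr17:41399778-41401183), with 350, 393 and 429 against 324, 257 and 248 (0.50 ± 0.12, limma adjusted p = 0.0493), and the one called lower lay 1.24 kb from RNF112 (chr17:19312954-19313202), with 11.2, 15.6 and 26.6 against 55.4, 41.8 and 47.5 (-1.46 ± 0.31, adjusted p = 0.0384). With any 1 of the PBS libraries left out limma called 0 members, with 287, 233 and 220 at an unadjusted p under 0.05 without PBS replicates 1, 2 and 3. Of 1055 promoters 0 were called by limma, with 92 at an unadjusted p under 0.05, beside 0.0276% of all promoters higher and 0.0276% lower (0.0551% in either direction). Over all distal regions 0.0432% were higher and 0.324% lower (0.368% in either direction). By gene, 0 of 969 were called by limma in SCC25, beside 0.0236% of all genes higher and 0.0236% lower.

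The regions next in rank in SCC25 missed the threshold. The promoter of SUMO2, a ubiquitin-like modifier gene, stood at 89.99, 55.4 and 83.2 against 33.9, 43.99 and 39.9 (0.92, limma adjusted p = 0.0767), and that of HDHD5 at 122, 162 and 129 against 86.3, 96.6 and 74.6 (0.67, adjusted p = 0.0775). A region nearest A4GALT, a glycolipid enzyme gene, had a change of 1.03 (adjusted p = 0.0667) and one nearest GAS7 of -0.76 (adjusted p = 0.0737). On chromosome 22 the lower regions with the smallest p lay in WNT7B (-1.003, adjusted p = 0.156) and TXNRD2 (-0.86, adjusted p = 0.206), and at the latter the groups overlapped. Although single regions were seldom called, 70.1% of tested regions of chromosome 22 changed by more than the median of all regions in SCC25, and promoters and distal regions there had shifts of 0.15 and 0.21.

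The response of SCC25 was compared with that of SCC6 by the interaction of line and treatment in limma, a contrast that does not use SCC1. Of 3591 tested members 246 differed at an adjusted p under 0.05, or 110 with a higher and 136 with a lower change in SCC25, 3.06% and 3.79%, where over all regions 2.58% and 6.77% did (9.35% in either direction). Of 1032 promoters 39 were higher and 10 lower (all promoters 3.14% and 1.3%, 4.44% in either direction), and 19 of the 39 lay among the 302 promoters of chromosome 22. Of 2559 distal regions 71 were higher and 126 lower (all distal regions 2.47% and 7.86%, 10.3% in either direction). The KSR1 region (interaction -2.56, adjusted p = 0.000100), the MN1 region at 415 kb (-2.93, adjusted p = 2.45e-06) and the MB promoter (1.89, adjusted p = 0.000464) were among the named regions that differed. They were named for their change in SCC6, and the interaction reuses those values, so their differences are descriptions.

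Motifs were counted in 200 bases around the midpoint of each region, on both strands and with overlap allowed. In SCC1 the AP-1 motif (TGANTCA) lay in 17.2% of the 232 distal members that were higher and in 52.9% of the 87 that were lower, against 33.9% of all tested distal members and 36.2% of all tested distal regions of the genome. Over the whole genome the shares were close to these, 17.4% of higher and 54.1% of lower distal regions. The GC box (GGGCGG) lay in 28.9% of the higher and 1.1% of the lower distal members, against 13.5% of tested distal members and 16.9% of higher and 4.86% of lower distal regions of the genome. In SCC6 the AP-1 motif lay in 26.0% of 431 higher and 43.6% of 264 lower distal members, against 30.8% of those tested and 22.9% of higher and 51.1% of lower distal regions of the genome. The TEAD motif (GGAATG) lay in 32.0% of the higher and 17.4% of the lower ones, against 20.9% of those tested and 28.4% and 17.4% over the genome.

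Among promoters the CCAAT box lay in 37.1% of the 431 members higher in SCC1, against 29.5% of tested members, 23.6% of all tested promoters and 32.2% of all higher promoters, and the GC box in 67.3%, against 60.4%, 54.7% and 65.8%. The TFAP2 motif (GCCNNNGGC) lay in 27.4% of the higher promoters and in 24.9% of those tested. Matches of the ETS motif (CCGGAAG), the CRE (TGACGTCA) and the NRF1 motif were found in 12.3%, 2.3% and 1.2% of the higher promoters, against 11.1%, 2.1% and 1.4% of those tested. A match describes the letters of a window and not a bound factor.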

How the data were processed

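The authors trimmed reads with Trim Galore 0.5.0, aligned them with Bowtie2 2.3.2 to hg19 (GRCh37), used Picard 2.18 to take out duplicates and mitochondrial reads and SAMtools 1.9 for reads of low quality, and called peaks with MACS2 (broad, by the names in the files). DiffBind was used for the differential analysis. Versions of MACS2 and DiffBind are not given in the sources used here. The deposited region table holds a signal for 115087 regions. Dividing a library by its own scaling step returned whole reads for 100% of values (tolerance 0.001), where a region without reads carries the value of 1 read. The deposited peak lists give a fold enrichment (a ratio) and a −log10 p-value and q-value, of which the fold enrichment is used here.

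Each line was tested with limma 3.58.1 (trend, robust, two-sided; R 4.3.3) on log2 of the signal plus 1, leaving out the 25% of regions lowest in mean, with Benjamini-Hochberg adjustment over all tested regions. The fold change is thus on a log2(value + 1) scale and understates low regions. The signal is scaled, so edgeR 4.0.16 and DESeq2 1.42.0 on recovered reads were alternatives, beside other scalings, a pseudocount of 5, no filter, a promoter window of 3 kb, a replicate block and leaving out each library. The fits were tested on simulated reads. Of the members, 3838 passed the filter in SCC1, 3683 in SCC6, 3746 in SCC25 and 3591 in the comparison of lines. Start sites (78530 of 19748 protein-coding genes) came from GENCODE release 44 mapped to GRCh37. Python 3.11.15, numpy 2.4.6, pandas 2.3.3 and matplotlib 3.10.9 did the rest.

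The chromosomes, gene lists and rules were chosen with earlier results of these data known. Named regions are, among called regions with separate groups and a signal above the median, on each chromosome the 6 promoters with the largest and 3 with the smallest change in SCC1 and 3 distal regions at each end, and 3 of each in SCC6. In SCC25 they are the 2 regions with the smallest p in each direction on each chromosome, called or not. A region is named by a gene starting within 1 kb or by the nearest start site. Groups and replicate numbers come from the labels. Values of some single genes of the lists are not reported here.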

Additional observations from a re-analysis of the deposited data

Results flagged for a closer look

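Flags are set where the effect of treatment differs between lines. At a Benjamini-Hochberg adjusted p under 0.05, the interaction of line and treatment in limma set apart 246 of 3591 tested members. The change in SCC25 was higher than in SCC6 in 3.06% of tested members and lower in 3.79%, against 2.58% and 6.77% of all regions. Among the named regions, the log2 effect in SCC25 less that in SCC6 was -1.54 at NPLOC4, -1.22 at NLRP1, -1.49 at TRIOBP, -2.56 at KSR1, -2.57 at MYOCD, -2.76 at HS3ST3B1, -2.57 at MICAL3, and -2.93 and -2.13 at the regions 415 kb and 465 kb from MN1, each higher in SCC6. It was 1.00 at KRT15, 1.14 at SPACA3, 1.45 at CDRT15L2, 1.89 at MB, 2.06 at TCF20, 1.56 at MCAT and 1.66 at the distal LIF region, each lower in SCC6. At the regions picked in SCC25 it was 1.15 at TMEM106A, 1.04 at SUMO2 and 0.61 at HDHD5. Every region listed was named for its change in SCC6 or in SCC25. The interaction reuses the values that picked it, so these differences are descriptions.

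The mean shares of reads rose in SCC1 and SCC25 and fell in SCC6, and this difference was not tested. Treated and untreated libraries overlapped on both chromosomes in SCC6 and on chromosome 17 in SCC25. The rise in SCC1 was the reason the chromosomes were picked. Each treated library was set against the mean of the untreated ones of its line. The change on chromosome 17 in SCC1 less that in SCC6 was 1.22 percentage points and that in SCC6 less that in SCC25 was -0.233; on chromosome 22 the values were 0.612 and -0.251.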

How the results depend on the processing

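The SCC6 shift of chromosome 17 turned from -0.14 to 0.00596 with the GC trend removed, and the SCC6 calls turned from mostly higher (466 and 354) to mostly lower with median centring (329 and 759), quantile normalization, edgeR and DESeq2. Over the alternatives, 138 values of counts and shifts were kept and 46 moved. Counts under the alternatives have no share of all regions beside them and are not read as particular to these chromosomes. Median centring gave 1013 higher and 56 lower in SCC1, 759 lower in SCC6, 2 and 0 in SCC25 and 418 regions with a different effect; quantile normalization gave 571 lower in SCC6 and 5 higher in SCC25. With the GC trend removed, 60 were lower in SCC1 and 0 in SCC25, and the shifts were -0.0380 for chromosome 22 in SCC6 and 0.0164 for chromosome 17 in SCC25. DESeq2 gave 42 lower in SCC1, 303 higher in SCC6 and 5 higher in SCC25, edgeR 21 and 8 in SCC25 and 409 with a different effect, and a pseudocount of 5 gave 2 and 2 in SCC25. Without the filter on low regions the shifts were 0.21 and 0.30 in SCC1 and 0.0110 for chromosome 17 in SCC25. Leaving out 1 library gave 178 to 947 higher and 14 to 104 lower in SCC1, 227 to 389 lower in SCC6 (227 without SCC6 PBS replicate 2), 0 to 3 higher and 0 to 10 lower in SCC25, a shift of chromosome 22 of -0.26 to -0.13 in SCC6 and 163 to 260 regions with a different effect (163 without SCC25 PBS replicate 2). Without each PBS library of SCC25 in turn limma called 0 regions, with 287, 233 and 220 at an unadjusted p under 0.05, counts without a share of all regions beside them. The replicate block gave 951 and 104 in SCC1 and 7 and 7 in SCC25; same-numbered libraries correlated at -0.0232 to 0.0383, so the numbers do not pair them. Of the values of named regions, classes and windows, 1025 were kept, 70 lost and 17 gained the threshold and 27 moved. The causes were not tested. In SCC1 the median region held 7 to 15 reads, and counts there rest on 2 untreated libraries.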

Other observations

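The regions of 2 loci were picked after their values were seen. At LIF in SCC6 the promoter region (chr22:30643061-30643270) rose from 9.67, 16.7 and 11.96 to 28.3, 48.3 and 53.9 (log2 change 1.67 ± 0.32, limma adjusted p = 7.63e-05), while the distal region 5.69 kb away (chr22:30648435-30648836) fell from 169, 146 and 169 to 57.6, 44.6 and 51.9. At MYOCD a promoter region (chr17:12568786-12569384) rose in SCC6 by 0.73 (limma adjusted p = 0.00272), and another (chr17:12647699-12648015) fell in SCC1 and had a change of 0.51 in SCC6 (adjusted p = 0.131).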
